A study of Rattus norvegicus with 12 samples.

Results

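Endothelial identity genes are the genes by which the cells lining blood vessels are recognised in tissue. The 10 genes described here were taken by symbol: Pecam1, Cdh5, Kdr, Flt1, Tek, Tie1, Vwf, Emcn, Eng and Nos3. Of these, 9 were listed by symbol in the count table and all 9 passed the filter of at least 10 reads in total. Flt1 was not listed by symbol, and its level was not analysed here. The whole table held 30560 genes, of which 18182 were tested.

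The endothelium receives vascular endothelial growth factor (VEGF) through the receptors encoded by Kdr and Flt1, and angiopoietins through the Tie receptor pair encoded by Tek and Tie1. Cdh5 and Pecam1 encode adhesion proteins of the contacts between endothelial cells, and Eng encodes a co-receptor for ligands of the TGF-beta and bone morphogenetic protein family. Nos3 encodes the endothelial nitric oxide synthase, Vwf the von Willebrand factor stored in endothelial granules, and Emcn a mucin-like surface protein of capillaries and veins. The heart muscle is among the most densely capillarised tissues, so these messages are readily measured in bulk heart RNA.

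RNA was taken from formalin-fixed, paraffin-embedded sections of the middle region of the heart of 12 male Wistar Han rats, with 1 library per rat and surgery at 7 weeks of age. The 4 Sham rats had the chest opened with no suture placed and received 0.5% carboxymethylcellulose vehicle. The 4 MI rats had myocardial infarction by permanent ligation of the left anterior descending coronary artery and the same vehicle. The 4 MI + UA rats had the same ligation and urolithin A (UA), a gut microbial metabolite of ellagitannins, by daily gavage of a 50 mg/ml preparation for 8 weeks. The sources differ on whether dosing began 24 h or later after surgery and on the dose given. Rats with small infarcts had been excluded by echocardiography, and no allele or transgene was involved. Rat 66 was MI + UA by its label, but the study's echocardiography listing places it with the vehicle-treated MI rats. It was counted as MI + UA, and the tests of the 9 endothelial genes and of the gene pairs were also run with it moved or left out.

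Reads on genes numbered 6228706 to 19031695 per library, and the 9 endothelial genes together took 5769 to 17901 of them. The 13 mitochondrially encoded genes held 50.2% to 58.6% of the gene reads. Among reads that fell on a gene, on several genes or on none, 50.4% to 53.4% fell on genes in Sham, 47.6% to 49.8% in MI and 46.2% to 50.8% in MI + UA. The part of this difference in the results was not tested. The heart label was checked against cardiomyocyte genes: Myh6, the alpha myosin heavy chain, reached 5864 ± 812 CPM in Sham (SD, n = 4). Here CPM are counts scaled by TMM to a common library size, and they carry no correction for gene length, so levels are compared between rats and not between genes.

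Start-site sequences were matched by symbol for 5 of the 9 genes measured, namely Kdr, Tie1, Emcn, Eng and Nos3. Those of Kdr, Eng and Nos3 are shown because these 3 genes had groups that did not overlap in a comparison with Sham. Each run is the 250 bases before the annotated start, read 5′ to 3′ on the gene's strand, from RefSeq on build GRCr8. Kdr lies at chr14:32571813-32572062 (plus strand), Eng at chr3:36332029-36332278 (plus strand) and Nos3 at chr4:11706582-11706831 (minus strand). Capitals mark GGAA on either strand (TTCC on the strand shown), the core recognised by ETS factors such as Erg and Fli1. GGAA and TTCC cannot overlap each other.
Kdr: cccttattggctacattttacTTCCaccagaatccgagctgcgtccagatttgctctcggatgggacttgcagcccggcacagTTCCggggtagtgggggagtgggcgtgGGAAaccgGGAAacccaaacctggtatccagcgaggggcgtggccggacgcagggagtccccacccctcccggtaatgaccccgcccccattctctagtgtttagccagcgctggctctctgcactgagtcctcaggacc
Eng: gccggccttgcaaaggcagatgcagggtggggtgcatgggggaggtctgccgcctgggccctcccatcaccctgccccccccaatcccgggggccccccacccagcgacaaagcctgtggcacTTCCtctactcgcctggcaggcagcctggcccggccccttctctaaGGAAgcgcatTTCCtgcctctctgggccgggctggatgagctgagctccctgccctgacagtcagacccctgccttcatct
Nos3: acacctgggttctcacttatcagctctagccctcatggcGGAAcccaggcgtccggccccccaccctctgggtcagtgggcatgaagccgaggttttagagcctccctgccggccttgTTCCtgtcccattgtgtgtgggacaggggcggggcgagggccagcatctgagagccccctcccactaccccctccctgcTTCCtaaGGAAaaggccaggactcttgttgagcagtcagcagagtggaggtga
The core occurred 4 times before Kdr, 3 times before Eng and 4 times before Nos3, and 4 and 6 times before Tie1 and Emcn. It is a frequent word, found in 93.2% of 33469 rat promoter windows of the same length, with a median of 3 per window. The SP1 word GGGCGG, searched on both strands, occurred once each before Kdr, Nos3 and Tie1 and was present in 30.5% of all windows. These matches describe the letters of the window and nothing was drawn from them about factor binding.

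Infarction was accompanied by a lower level of 1 of the 9 endothelial genes, Kdr, while the level of the other 8 did not pass the test. The 9 genes had values of both signs: 7 log2 fold changes of MI over Sham were negative and 2 were positive, running from -0.50 for Kdr to 0.25 for Vwf. The Vwf value was 0.13 with rat 66 counted as MI and 0.17 without MI rat 61. The median of the 9 genes was -0.15, beside 0.03 over all genes tested. The 1 call, a lower one, stands beside a background of 5.53% of all genes called lower and 5.82% called higher in the same comparison. Summed over the 9 genes, the level in MI was 97.5% ± 8.44 (SD, n = 4) of the Sham mean, with rats from 89.5% to 106%. The direction of this sum turned with the scaling: per 10000 gene reads, without TMM, the 9 genes took 9.41 in Sham, 10.5 in MI and 9.40 in MI + UA on average. In bulk tissue, fewer endothelial cells and less RNA per endothelial cell cannot be told apart.

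**Figure D1:**
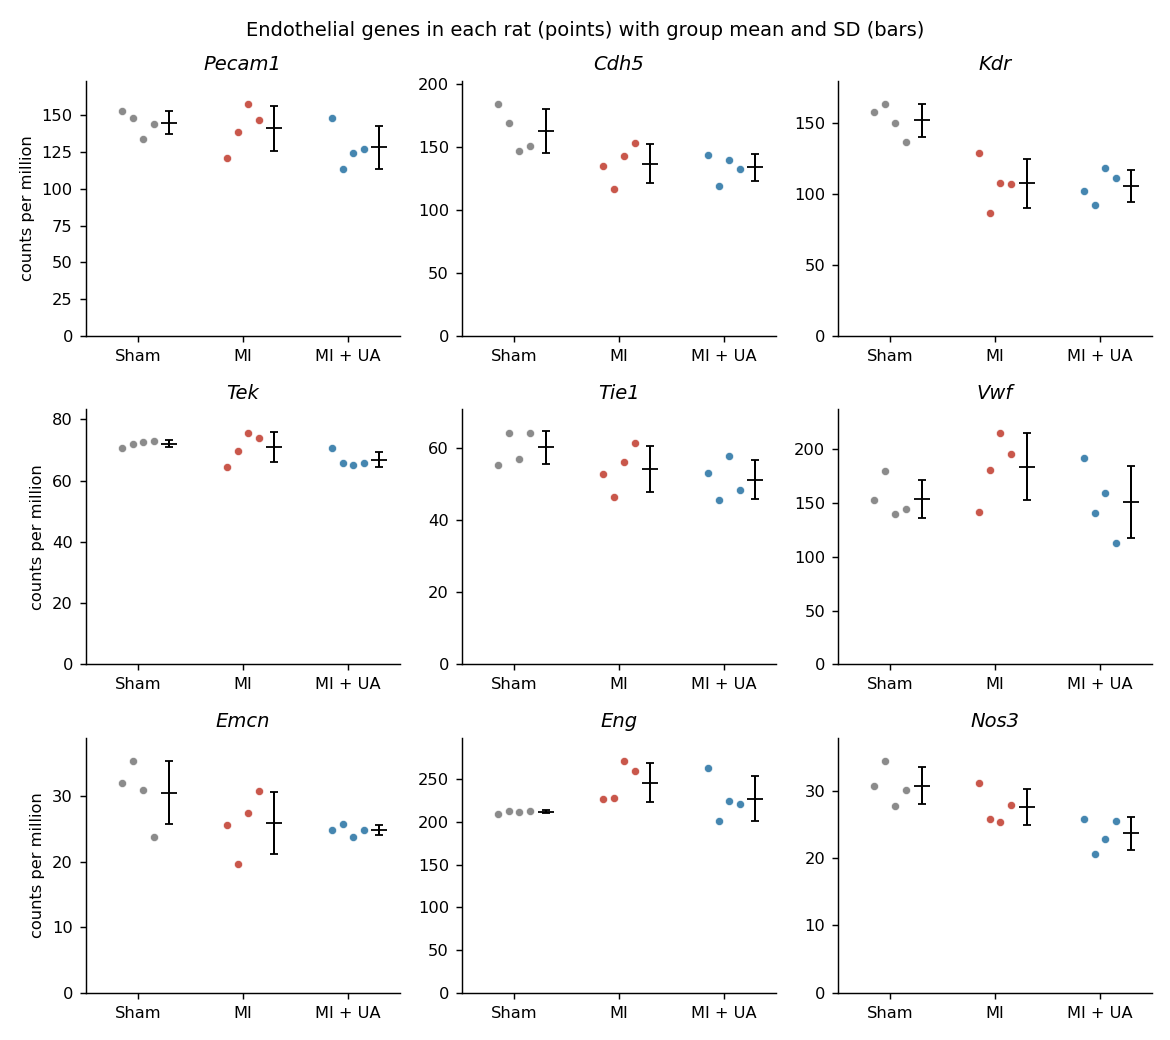
Level of each of the 9 endothelial genes in CPM (vertical axis from 0) in the Sham, MI and MI + UA rats. Points are single rats and bars the mean ± SD of 4 rats. For Kdr, the 4 MI and the 4 MI + UA rats all lie below the 4 Sham rats. For Eng, the 4 Sham rats lie between 209 and 213, all below the MI rats.

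Throughout, values are given in the order of rats 12, 17, 32 and 38 for Sham, 36, 57, 61 and 89 for MI, and 29, 58, 64 and 66 for MI + UA. Kdr (ENSRNOG00000046829), which encodes VEGF receptor 2, the main signalling receptor for VEGF-A on endothelium, stood at 158, 163, 150.3 and 137 CPM in Sham and at 129, 87.0, 108 and 107 CPM in MI. In MI + UA it stood at 102, 92.2, 118 and 111 CPM. Every infarcted rat was below every Sham rat, with MI rat 36 the nearest to the Sham range and MI rat 57 the farthest from it. Kdr fell by 29.1% in MI (log2 fold change -0.50, SE 0.11, edgeR adjusted p = 0.0034). The call was made in each of the 8 fits that left out 1 rat, where the log2 fold change ran from -0.59 to -0.41, and by DESeq2. Of the 16 alternatives run, it was lost in 1, where libraries were scaled to their totals without TMM. That scaling raised the median of all genes to 0.22 on the log2 scale, and Kdr then stood at -0.30 (adjusted p = 0.118), or -0.51 relative to that median.

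Tek and Tie1, the angiopoietin receptor and its partner receptor, did not pass the test. Tek was at 70.5, 71.9, 72.7 and 73.0 CPM in Sham, at 64.5, 69.8, 75.7 and 73.9 CPM in MI and at 70.5, 65.8, 65.2 and 65.9 CPM in MI + UA. The MI rats spanned the Sham range on both sides, and the log2 fold change was -0.02 (SE 0.08, adjusted p = 0.91). Tie1 was at 55.3, 64.1, 57.1 and 64.3 CPM in Sham, at 52.7, 46.4, 56.3 and 61.3 CPM in MI and at 53.0, 45.5, 57.8 and 48.5 CPM in MI + UA. The MI level was 54.2 ± 6.28 CPM against 60.2 ± 4.66 CPM in Sham (SD, n = 4 each), with overlapping rats and an edgeR adjusted p of 0.403. The Tie1 log2 fold change was -0.15, and it was -0.085 without MI rat 57 and -0.21 without MI rat 89.

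Neither of the junction genes Cdh5 and Pecam1 passed the test. Cdh5, VE-cadherin, was at 184, 169, 147 and 151 CPM in Sham, at 135, 117, 143 and 153 CPM in MI and at 144, 119, 140.1 and 132 CPM in MI + UA. Of the MI rats, only rat 89 reached the Sham range, and the log2 fold change was -0.25 (SE 0.10, unadjusted p = 0.018, edgeR adjusted p = 0.111). Pecam1, the platelet and endothelial adhesion molecule CD31, was at 152, 148, 134 and 144 CPM in Sham, at 121, 139, 157 and 147 CPM in MI and at 148, 114, 124 and 127 CPM in MI + UA. Its MI and Sham rats overlapped broadly (log2 fold change -0.04, SE 0.09, adjusted p = 0.861).

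Eng was at 209, 213, 212 and 213 CPM in Sham, at 227, 227, 271 and 259 CPM in MI and at 263, 201, 225 and 220.3 CPM in MI + UA. All 4 MI rats were above all 4 Sham rats, whose coefficient of variation was 0.841%, yet the adjusted p of 0.123 did not pass (log2 fold change 0.22, SE 0.09, unadjusted p = 0.0212). Non-overlap of this kind was found for 8.12% of all genes in the higher and 7.56% in the lower direction, and for 1 of the 9 endothelial genes in each. With library totals and no TMM, Eng was the gene called in place of Kdr (log2 fold change 0.41, edgeR adjusted p = 0.0143), 0.19 above the median of all genes.

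Nos3 was at 30.7, 34.4, 27.8 and 30.0 CPM in Sham, at 31.1, 25.7, 25.3 and 27.8 CPM in MI and at 25.8, 20.5, 22.9 and 25.5 CPM in MI + UA. MI rats 36 and 89 lay inside the Sham range, rat 89 at its lower edge, and the difference between MI and Sham did not pass (log2 fold change -0.16, SE 0.10, adjusted p = 0.403). Without Sham rat 17 it was -0.099. Vwf was at 153, 179, 139.6 and 144 CPM in Sham, at 142, 181, 215 and 196 CPM in MI and at 191, 140.4, 159 and 112 CPM in MI + UA. Its MI mean was 183 ± 31.0 CPM against 154 ± 17.8 CPM in Sham (SD, n = 4 each), and rat 36 again overlapped Sham (adjusted p = 0.285). Emcn was at 32, 35.4, 31.0 and 23.8 CPM in Sham, at 25.6, 19.6, 27.5 and 30.9 CPM in MI and at 24.9, 25.8, 23.8 and 24.9 CPM in MI + UA. Sham rat 38 sat among the infarcted rats, and the log2 fold change of -0.22 (SE 0.13) had an adjusted p of 0.313. It was -0.12 without MI rat 57 and -0.33 without Sham rat 38.

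Compared with MI alone, MI + UA changed none of the 9 genes by the test. edgeR called 0 of 9, with 0 at an unadjusted p under 0.05 beside 689 of all 18182 genes, and DESeq2 called 0; the background was 0% of all genes called higher and 0% called lower. All 9 log2 fold changes were negative, from -0.28 for Vwf (95% interval -0.57 to 0.01) to -0.02 for Kdr (95% interval -0.24 to 0.19), with a median of -0.09 beside 0.00 over all genes. Every gene's MI + UA rats overlapped its MI rats, where 1.18% and 1.16% of all genes had MI + UA wholly above and wholly below MI. Nos3 had a log2 fold change of -0.21 (95% interval -0.43 to 0.00, adjusted p = 1.00). For Kdr, the MI + UA mean of 106 ± 11.3 CPM lay beside an MI mean of 108 ± 17 CPM (SD, n = 4 each). The summed level of the 9 genes in MI + UA was 89.6% ± 8.51 (SD, n = 4) of the Sham mean. With rat 66 counted as MI or left out, the count remained 0, and the Vwf value went to -0.041 and -0.16. Leaving out MI + UA rat 29 took it to -0.42.

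Against Sham, MI + UA had 2 of the 9 genes lower, beside a background of 4.27% called lower and 5.16% called higher. Kdr fell by 30.3% (log2 fold change -0.52, SE 0.11, edgeR adjusted p = 0.0029). Nos3 fell by 22.4%, from 30.7 ± 2.73 CPM to 23.7 ± 2.46 CPM (SD, n = 4 each; log2 fold change -0.37, SE 0.10, adjusted p = 0.0303). Kdr, Nos3 and Cdh5 had all MI + UA rats below all Sham rats, which held for 6.46% of all genes (7.83% in the higher direction). Cdh5 did not pass in edgeR (log2 fold change -0.28, SE 0.10, adjusted p = 0.0736) and passed in DESeq2 (adjusted p = 0.0389). Eng was the 1 gene with a positive value, 0.10 (0.038 without MI + UA rat 29 and 0.16 without rat 58), and it overlapped Sham. The Nos3 call was lost when any of Sham rats 12, 17 and 38 or MI + UA rats 58 and 64 was left out, with adjusted p from 0.0572 to 0.105. Moving rat 66 to MI or leaving it out kept the same 2 calls, and with library totals and no TMM neither gene was called. Kdr then stood at -0.37 (edgeR adjusted p = 0.0647) and Nos3 at -0.22 (adjusted p = 0.265), or -0.54 and -0.39 relative to the median of all genes. MI versus Sham and MI + UA versus Sham share their Sham rats, and MI + UA versus MI shares its MI rats with the first.

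**Figure D2:**
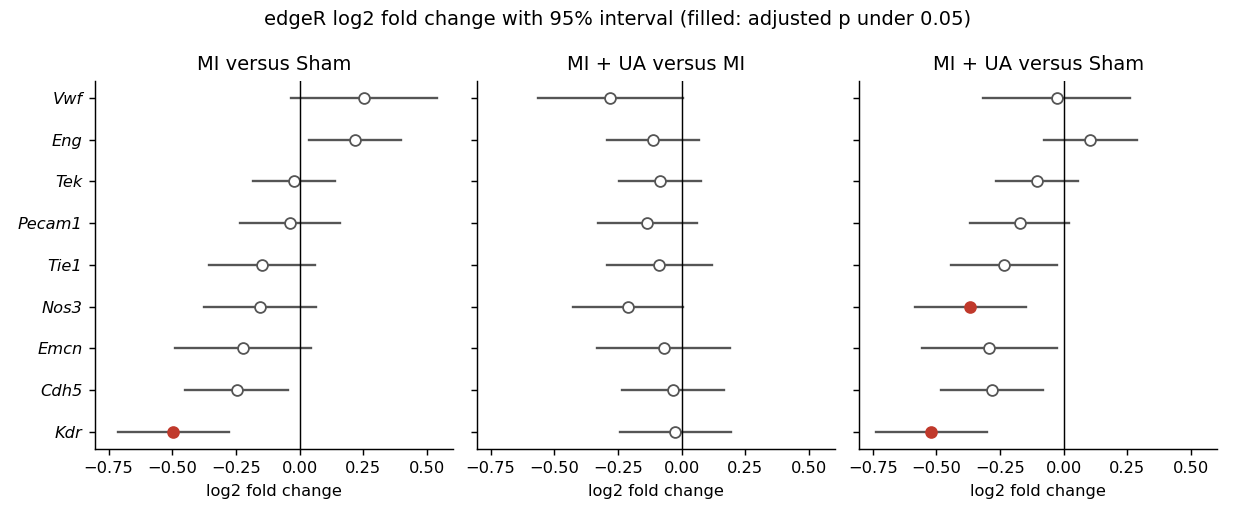
edgeR log2 fold change (horizontal axis) of each endothelial gene in MI versus Sham, MI + UA versus MI and MI + UA versus Sham, with 95% intervals as lines. Filled points have an adjusted p under 0.05: Kdr in both comparisons with Sham, at -0.50 and -0.52, and Nos3 in MI + UA versus Sham, at -0.37. No gene is filled in MI + UA versus MI, where all 9 points lie left of 0.

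Taken by level, Kdr and Nos3 ran in the order Sham, MI, MI + UA, as did Cdh5, Tie1, Emcn, Pecam1 and Tek. Neighbouring groups in that order differed by the test only for Kdr, between Sham and MI. Eng ran MI, MI + UA, Sham and Vwf ran MI, Sham, MI + UA, with no neighbouring groups that passed. These orders are of TMM-scaled CPM, and some steps were small, such as Tek at 72.0 CPM in Sham and 71.0 CPM in MI. With library totals and no TMM, Nos3, Tie1, Pecam1 and Tek had positive log2 fold changes in MI versus Sham. Their order was then no longer Sham, MI, MI + UA.

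Single rats stood out across several genes. Among the MI rats, rat 36 was the lowest for Pecam1, Tek, Vwf and Eng and the highest for Kdr and Nos3. MI rat 57 was the lowest for Cdh5, Kdr, Tie1 and Emcn. In MI + UA, rat 29 was the highest for 6 of the 9 genes and rat 58 the lowest for 6. The summed level accordingly ran from 80.9% of the Sham mean in rat 58 to 100.4% in rat 29.

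Ratios of 2 genes within a library need no scaling between libraries. They were compared for 5 pairs in 3 comparisons with two-sided exact permutation tests over rats, whose smallest p with 4 against 4 is 0.0286, adjusted over 15 tests. None passed after adjustment, which a few tests at that smallest p cannot do, so this says nothing on whether the ratios differed. The Eng to Pecam1 log2 read ratio was 0.55 ± 0.09 in Sham, 0.81 ± 0.08 in MI and 0.83 ± 0.02 in MI + UA (SD, n = 4 each). Both infarcted groups lay wholly above Sham (exact permutation p = 0.0286, adjusted p = 0.143 for each). Nos3 to Pecam1 was lower in MI + UA than in Sham by a log2 difference of -0.20, again without overlap (exact permutation p = 0.0286, adjusted p = 0.143). Emcn to Vwf differed by -0.49 between MI and Sham with overlapping rats (exact permutation p = 0.0571, adjusted p = 0.214). Tek to Tie1 and Cdh5 to Pecam1 had exact permutation p-values of at least 0.114 in every comparison.

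Kdr was also set against each of the other 8 genes, a choice made after its values were seen and therefore given without a test. Per read of Pecam1 there were 1.05 ± 0.0783 reads of Kdr in Sham, 0.776 ± 0.196 in MI and 0.834 ± 0.112 in MI + UA (SD, n = 4 each). Per read of Eng the ratio was 0.719 ± 0.0563 in Sham, 0.440 ± 0.0858 in MI and 0.470 ± 0.0608 in MI + UA, and here no infarcted rat reached the Sham range. Rat 36 was the MI rat nearest to Sham for Pecam1, where its ratio of 1.06 lay inside the Sham range of 0.949 to 1.12. The highest MI + UA rat, at 0.954, also lay inside it. Kdr had the most negative fold change of the 9 genes in both comparisons with Sham, so a lower mean ratio to the other genes restates that order.

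**Figure D3:**
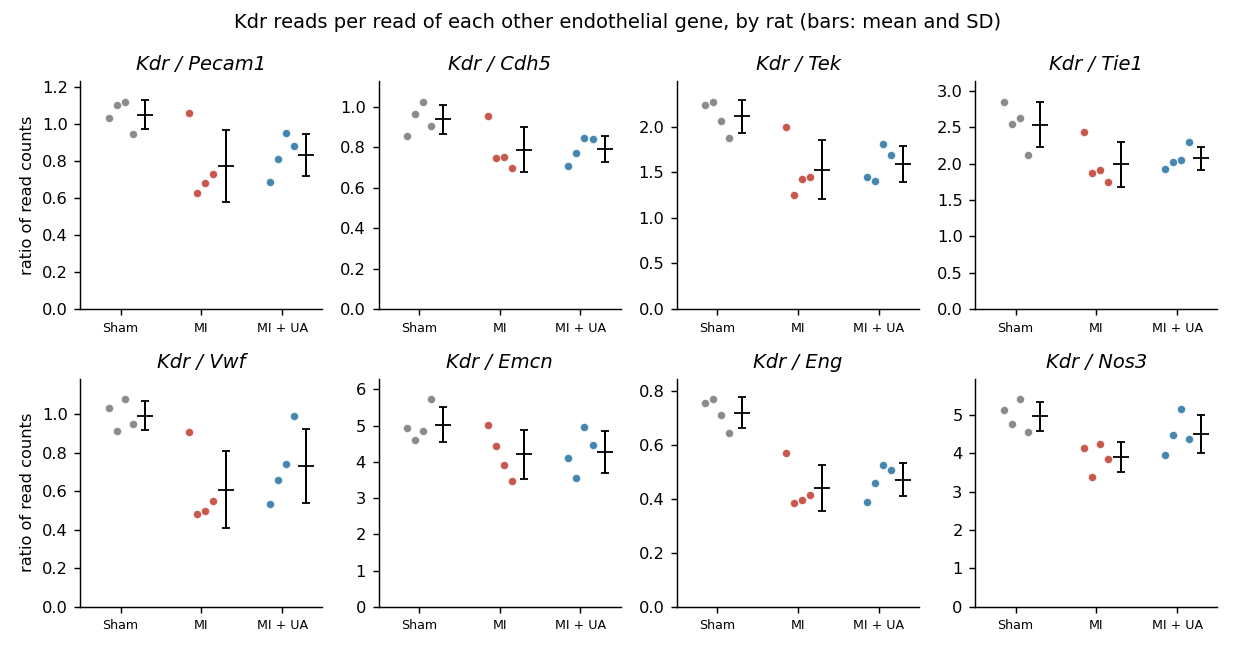
Reads of Kdr per read of each other endothelial gene in the same library (vertical axis from 0), by group. Points are single rats and bars the mean ± SD of 4 rats. For Eng the 4 Sham rats (0.643 to 0.767) lie above all infarcted rats, and for Pecam1 MI rat 36 (1.06) and the highest MI + UA rat (0.954) lie within the Sham range.

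Of 11 VEGF and angiopoietin partners tested, 1 was higher and 2 were lower in MI than in Sham. The background for this and the following lists was 5.82% of all genes called higher and 5.53% called lower in this comparison. Angpt1, the activating ligand of Tek made largely by perivascular cells, went from 36 ± 4.73 to 26.0 ± 3.47 CPM (SD, n = 4 each; log2 fold change -0.47, SE 0.12, edgeR adjusted p = 0.0101). Vegfb, a ligand of the Flt1 receptor, went from 79.1 ± 7.75 to 62.7 ± 2.87 CPM (log2 fold change -0.33, adjusted p = 0.0216), with no overlap. Flt4, the VEGF-C receptor of lymphatic endothelium, rose from 8.52 ± 0.976 to 11.7 ± 1.19 CPM (log2 fold change 0.46, adjusted p = 0.0416). Vegfd was not listed by symbol.

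Of 10 junction partners tested, 1 passed: Jup, which encodes plakoglobin and is also abundant at cardiomyocyte discs, was at 220.2 ± 5.13 CPM in Sham and 169.9 ± 1.96 CPM in MI (SD, n = 4 each; log2 fold change -0.37, edgeR adjusted p = 0.0066). None of 10 nitric oxide pathway genes passed, and 1 had an unadjusted p under 0.05, as did 4338 of all 18182 genes in MI versus Sham; Cav1, the caveolin that binds the synthase, had a log2 fold change of -0.21 (adjusted p = 0.181) and the chaperone Hsp90ab1 had -0.21 (adjusted p = 0.357). Of 12 endoglin pathway genes none passed in MI versus Sham, with 2 at an unadjusted p under 0.05, and Bmpr2 (0.05, adjusted p = 0.773) and Tgfbr2 (0.31, adjusted p = 0.0883) were those of highest mean CPM. DESeq2 called none in the nitric oxide and endoglin lists either.

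Of 12 endothelial transcription factors, 1 rose and 2 fell. The SOX factors Sox7 and Sox18 had log2 fold changes of -0.55 (SE 0.17, edgeR adjusted p = 0.0349) and -0.50 (SE 0.15, adjusted p = 0.0313). Sox7 went from 54.3 ± 2.42 to 36.8 ± 8.22 CPM (SD, n = 4 each) without overlap, and Sox18 overlapped. The flow-responsive factor Klf4 rose from 37.5 ± 3.27 to 49.2 ± 7.33 CPM (log2 fold change 0.38, adjusted p = 0.0419). The ETS factors Erg and Fli1 did not pass, at -0.11 (adjusted p = 0.594) and 0.07 (adjusted p = 0.792). They were named for the motif shown above, after their values were seen.

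None of 15 other pan-endothelial genes passed in MI versus Sham, with 2 at an unadjusted p under 0.05, and DESeq2 called none. Those of highest mean CPM were Podxl (-0.22, adjusted p = 0.114) and S1pr1 (0.25, adjusted p = 0.365). Their median log2 fold change was -0.08, beside the -0.15 of the 9 genes. Of 7 capillary genes 1 was lower, Gpihbp1, the capillary anchor of lipoprotein lipase, which went from 12.5 ± 1.00 to 7.35 ± 2.01 CPM (SD, n = 4 each; log2 fold change -0.77, edgeR adjusted p = 0.0298). Of these 7, 3 had an unadjusted p under 0.05, and DESeq2 called 2 lower. None of 9 arterial genes passed, with 2 at an unadjusted p under 0.05 and 0 called by DESeq2. Notch1 had -0.11 (edgeR adjusted p = 0.539) and Notch4 had 0.05 (adjusted p = 0.82). These unadjusted counts stand beside 4338 of all 18182 genes in MI versus Sham.

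Genes of venous and activated endothelium were higher in MI for 5 of 9 tested (4 by DESeq2), beside 5.82% of all genes called higher. Their median log2 fold change was 0.95. Plvap, the diaphragm protein of fenestrated vessels, rose from 3.29 ± 0.924 to 7.51 ± 2.13 CPM (SD, n = 4 each; log2 fold change 1.24, edgeR adjusted p = 0.0042). The leukocyte adhesion molecules Icam1 and Vcam1 rose by 1.03 and 0.95 on the log2 scale (adjusted p = 0.000561 and 0.0256), and the chemokine-binding Ackr1 by 0.98 (adjusted p = 0.0479). Ackr1 was no longer called when TMM was computed without the mitochondrially encoded genes. Nr2f2, a venous factor named here beyond the 4 largest, rose by 0.53. Several of these are also made by fibroblasts or leukocytes.

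In the lymphatic list, 4 of 6 genes rose and 1 fell, beside 5.82% of all genes called higher and 5.53% called lower. Lyve1, a hyaluronan receptor that resident macrophages also carry, rose from 12.7 ± 3.97 to 29.6 ± 7.78 CPM (SD, n = 4 each; log2 fold change 1.21, edgeR adjusted p = 0.000367). Ccl21, Reln and Mmrn1 rose by 0.81, 0.66 and 0.65 on the log2 scale. Prox1, the lymphatic master regulator that cardiomyocytes also express, had a log2 fold change of -0.45 (adjusted p = 0.0097) and is named beyond the 4 largest.

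**Figure D4:**
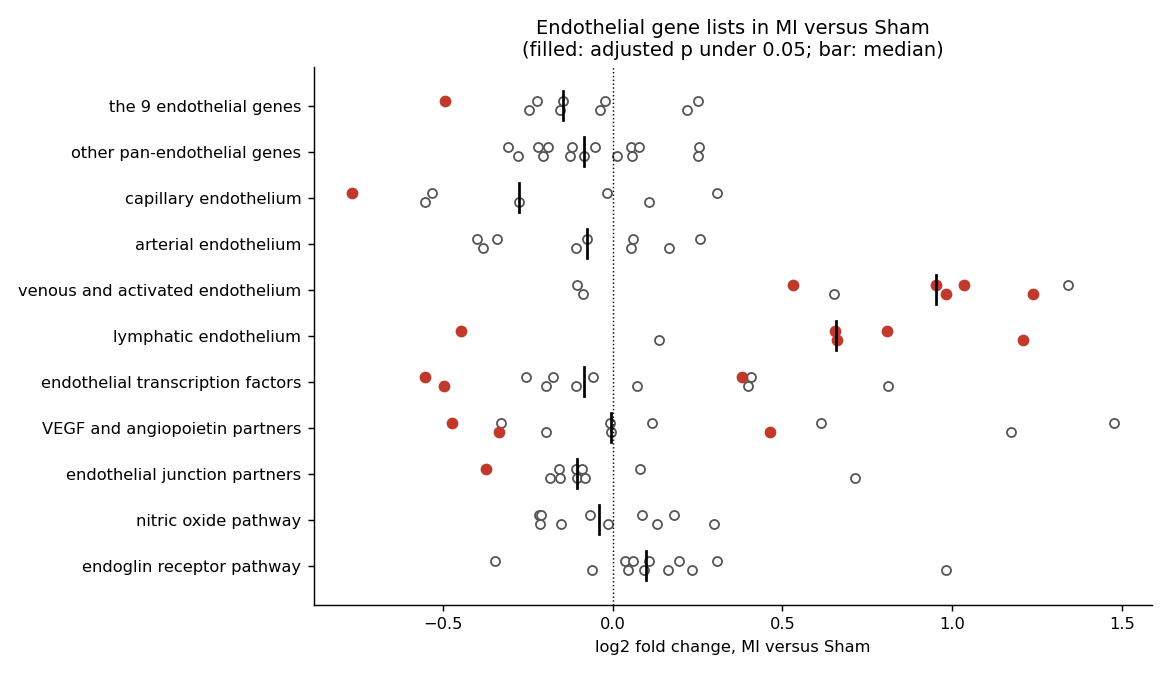
log2 fold change of MI versus Sham (horizontal axis) for single genes of 11 endothelial and partner lists. Filled points have an edgeR adjusted p under 0.05, and vertical bars are list medians. The medians of the venous and activated list (0.95) and the lymphatic list (0.66) lie to the right, and that of the 9 endothelial genes at -0.15.

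With library totals and no TMM, the calls of Angpt1, Vegfb, Jup, Sox7, Sox18, Gpihbp1 and Prox1 were lost, while those of Flt4, Klf4 and all 5 venous and 4 lymphatic genes that rose were kept, and Tgfbr2 and Klf2 were called higher. In MI + UA versus MI, 0 genes of any of the 17 lists passed in edgeR, and DESeq2 likewise called 0. Among the genes that the naming rule takes from the endothelial and partner lists, Sox7 (0.53, unadjusted p = 0.0038), Angpt1 (0.28, unadjusted p = 0.0215) and S1pr1 (-0.39, unadjusted p = 0.0231) had an unadjusted p under 0.05. In the capillary list, from which the rule takes Gpihbp1 alone, 4 of 7 genes had an unadjusted p under 0.05 in MI + UA versus MI, all lower: Rgcc (-0.70), Btnl9 (-0.42), Meox2 (-0.35) and Fabp4 (-0.26). Over all genes, 689 of 18182 had an unadjusted edgeR p under 0.05 in that comparison. Of the 7 capillary genes, 2 had positive values, up to 0.31. The list's median was -0.26, and its summed level was 81.4% of the Sham mean in MI + UA against 92.8% in MI, with overlapping rats. None of these passed after adjustment (edgeR adjusted p = 1.00 each). Against Sham, MI + UA had lower Jup, Jam3, Fabp4 and Btnl9 and higher Tgfbr1, Tgfbr2 and Klf4. Icam1, Plvap and Nr2f2 were higher there too, as were the 4 lymphatic genes that rose in MI. With library totals and no TMM, the calls of Jup, Jam3 and Fabp4 were lost in MI + UA versus Sham, that of Btnl9 was kept, and Flt4 and Angpt2 were called higher. DESeq2 called more genes lower there than edgeR, with 3 against 2 junction partners, 3 against 2 capillary genes, 2 against 0 other pan-endothelial genes and 1 against 0 VEGF and angiopoietin partners. Jam3, Fabp4, Btnl9, Rgcc, Meox2, Tgfbr1, Klf2 and Angpt2 were named after their values were seen.

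Markers of other cells moved in the same comparison. All 12 cardiomyocyte markers had negative values in MI versus Sham and 11 passed, with the summed list at 64.3% to 75.7% of the Sham mean in MI and 68.2% to 89.9% in MI + UA. Myh6 had the largest log2 fold change of them, -1.08 (edgeR adjusted p = 1.98e-06), followed by Tnni3 (-0.67), Myl3 (-0.56) and Atp2a2 (-0.49). With library totals, 5 of the 12 passed, namely these 4 and Ttn. Fibroblast markers passed for 6 of 8, all higher, led by Postn (2.65), Col1a1 (1.56), Col3a1 (1.45) and Col1a2 (1.26), and their sum was 168% to 274% of Sham in MI. Macrophage markers passed for 7 of 8, all higher, with Mrc1 at 1.54, C1qb at 1.26, Cd163 at 1.07 and Cd68 at 0.93, and a sum of 164% to 218% in MI. Of 10 mural cell markers, the cells that wrap vessels, 4 were higher, Cnn1 (1.56), Tagln (1.02), Pdgfrb (0.78) and Acta2 (0.56), while the sum stayed at 94.1% to 112%. In MI + UA versus Sham, 12 cardiomyocyte markers were lower, 6 fibroblast and 7 macrophage markers were higher, and of the mural markers Pdgfrb was higher and Kcnj8 lower. With library totals, 3 of the 12 cardiomyocyte markers (Tnni3, Myl3 and Myh6) were lower there, and Kcnj8 was not called. The part of these cells in the endothelial results was not tested.

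Blood cells were checked because platelets carry Pecam1 and Vwf. Of 5 platelet genes tested none passed in MI versus Sham, with 0 at an unadjusted p under 0.05 in edgeR and 0 called by DESeq2. Their sum was 8.37 to 11 CPM in Sham and 7.50 to 9.14 CPM in MI, where Gp1ba had a log2 fold change of -0.14 (adjusted p = 0.745). None of 3 red cell genes passed, at 389 to 883 CPM summed in Sham and 296 to 637 CPM in MI, with Hba-a2 at -0.30 (adjusted p = 0.517) and Slc4a1 at -0.55 (adjusted p = 0.226). None of 6 lymphocyte genes passed, at 2.6 to 4.53 CPM summed in Sham and 3.92 to 6.33 CPM in MI. Cd8a had a log2 fold change of 0.26 (edgeR adjusted p = 0.793). Cd3e, at -0.24 (adjusted p = 0.821), was the 1 lymphocyte gene with a negative value. The other 5 were positive, and the list's median was 0.65. In edgeR 1 of the 6 had an unadjusted p under 0.05, and DESeq2 gave an adjusted p to 2 of them. The platelet markers Gp1bb and Ppbp had under 10 reads in all and were not tested.

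**Figure D5:**
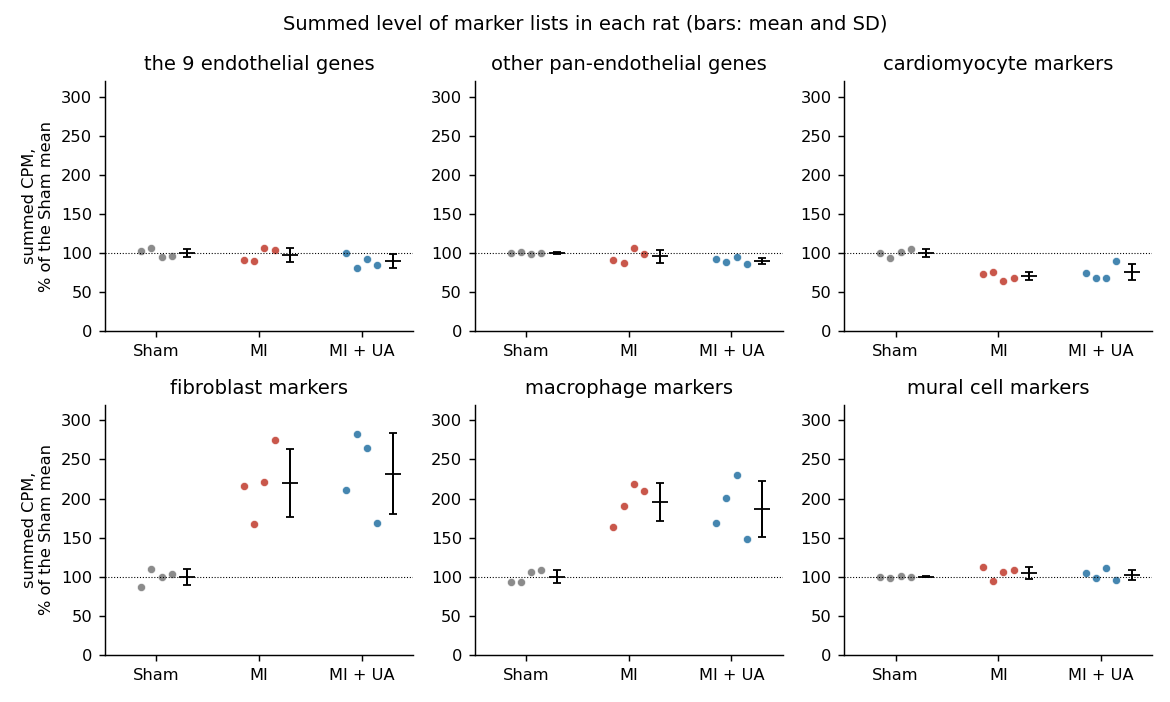
Summed CPM of the 9 endothelial genes and of 5 marker lists in each rat, as a percentage of the Sham mean (vertical axis from 0; dotted line at 100). Points are single rats and bars the mean ± SD of 4 rats. Endothelial sums lie between 80.9% and 106% in all rats, fibroblast sums between 168% and 283% in infarcted rats, and cardiomyocyte sums between 64.3% and 89.9%.

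Finally, genes were ranked by how closely they followed the 9 endothelial genes from rat to rat within groups. Over 12 rats and 10921 genes, the highest Pearson r with the mean of the 9 centred genes was that of Furin, a proprotein convertase, at 0.946. Dlg5 (0.907), Mettl7a (0.898), Tshz2 (0.893) and Calhm5 (0.891) came next. These are descriptions over libraries whose depth and marker levels of other cells also varied from rat to rat, and they carry no p-value. The part of that variation in these values was not tested. Of the 5, Dlg5 passed in MI versus Sham (log2 fold change 0.38, edgeR adjusted p = 0.0179), and the other 4 did not.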

How the data were processed

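RNA from heart sections of 12 rats (Sham, MI and MI + UA, 4 each, grouped by the labels) was sequenced as read pairs from strand-specific, rRNA-depleted libraries, although the labels give polyA RNA as the molecule. The authors mapped reads with STAR 2.6.1c to mRatBN7.2, counted them per Ensembl gene with HTSeq and deposited raw counts, without normalization; the strand setting of the counting is not given in the sources used here, so reads of overlapping or antisense genes may be included. The 5 summary lines of the table were left out of tests; 7162 genes without a symbol were tested but could not be matched to the lists.

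Genes whose counts summed to 10 or more were tested with edgeR 4.0.16 (quasi-likelihood test, TMM, all 12 libraries in one fit) in R 4.3.3, with Benjamini-Hochberg adjusted p-values over all 18182 genes and a threshold of 0.05. The standard errors were derived from the F statistic. DESeq2 1.42.0, other filters and scalings, rat 66 counted as MI, and leaving out each rat were alternatives. Log2 ratios of 5 gene pairs (reads + 0.5) were compared by exact permutation; the planned pair with Flt1 could not be computed. The 10 endothelial genes and the 17 other lists (170 genes, of which 13 were not listed by symbol) were chosen with earlier results of these data known. From each other list, up to 4 genes past the threshold in MI versus Sham or MI + UA versus MI are named by largest change, or the 2 of highest mean CPM where none passed; one platelet gene that the rule takes is not reported here. Depth was 6228706 to 19031695 gene reads per library, and intervals are 95%. Figures were drawn with matplotlib 3.10.9. A further MI + UA library that the labels mention has no column of counts and was not analysed here. The paper reports that it left an MI + UA sample out of its own analysis as an outlier in principal component analysis.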

Additional observations from a re-analysis of the deposited data

Results flagged for a closer look

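In 42 sets of 4 rats (each gene's log2 CPM and each pair's log2 ratio by group), the highest or lowest rat was examined with Dixon's test at its 95% level, which chance passes in about 1 set in 20. One set passed: Tek in MI + UA, where rat 29 at a log2 CPM of 6.14 stood above the other 3 rats at 6.03 to 6.04 (gap over range, 0.871). Rat 29 was also the highest MI + UA rat for Pecam1, Cdh5, Vwf, Eng and Nos3. Without it, no gene gained or lost a call in MI + UA versus MI or MI + UA versus Sham.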

How the results depend on the processing

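No paired analysis was possible because every rat number occurs in a single group. The 1 gene called in MI versus Sham was Kdr in all settings but library totals without TMM, where it was Eng. In MI + UA versus MI 0 genes were called in all 16 alternatives. In MI + UA versus Sham 2 were called (Kdr and Nos3), 3 with DESeq2, 0 with library totals, and 1 to 2 when leaving out 1 rat. Library totals moved the all-gene median from 0.03 to 0.22 in MI versus Sham, where 1881 of 2111 calls were then higher against 1058 of 2064, and from 0.02 to 0.17 in MI + UA versus Sham, where 1368 of 1553 were higher against 939 of 1716. Signs turned there for Pecam1 (0.16), Tek (0.17), Tie1 (0.0468) and Nos3 (0.0369) in MI versus Sham and for Tek (0.0483) and Vwf (0.14) in MI + UA versus Sham, by the raised median. Counting rat 66 as MI gave Vwf 0.0922 in MI + UA versus Sham and Emcn to Vwf -0.0137 in MI + UA versus MI. Leaving out 1 rat gave -0.0962 to 0.0287 for Pecam1 and -0.0542 to 0.0232 for Tek in MI versus Sham, -0.157 to 0.0919 for Vwf in MI + UA versus Sham, and in MI + UA versus MI -0.100 to 0.0247 for Cdh5, -0.110 to 0.0733 for Kdr, -0.170 to 0.0242 for Emcn, -0.172 to 0.0534 for Nos3 to Pecam1, -0.0510 to 0.0681 for Tek to Tie1 and -0.0091 to 0.0546 for Eng to Pecam1. The cause was not tested for these. With 3 rats against 4, the exact test cannot go below p = 0.0571. Reads per rat ran from 125 for Emcn in MI to 4598 for Eng in MI + UA.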
